A study of Mus musculus with 22 samples.

Results

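The genes described here are 10 genes of glycolysis and glucose transport, picked by symbol from the table of 55367 gene symbols: the transporters Slc2a1 and Slc2a3, the hexokinases Hk1 and Hk2, the phosphofructokinase subunits Pfkl and Pfkp, Pgk1, Pkm, and the lactate dehydrogenase subunits Ldha and Ldhb. All 10 were found, and all 10 were among the 17547 genes with enough reads to be tested. Their RNA was followed in 22 mouse RNA-seq libraries in 10 groups of embryonic stem cells (ESCs) and primitive endoderm (PrE) stem cells, PrE being the extraembryonic layer next to the epiblast of the early embryo. The study asked about PrE stem cells and the Polycomb methyltransferase Ezh2. Levels are in CPM, counts scaled to the library total in M, and changes are log2 fold changes, positive where the group named first was higher.

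The groups from the C57 line are wild-type ESCs kept with LIF (C57_ESC, n = 2) and wild-type cells in the PrE stem cell culture (C57_PrESC, n = 2). All other groups come from E14 cells. EPZ_iPrE1 and EPZ_iPrE2 (n = 2 each, here iPrE1 and iPrE2) are PrE stem cell lines induced from wild-type ESCs with EPZ-6438, an inhibitor of EZH2. The wild-type ESCs with LIF are TG2A_ESC (n = 2, titled TG2A.NG.PB.ESC) and E14_ESC (n = 3). The Ezh2-null cells are 1 clone, number 10, in serum with LIF (KO10_SL, n = 3), the same clone labelled as rescued (KO10_SL_rescued, n = 2), and the clone with the 2i inhibitors added (KO10_S2iL, n = 2). Wild-type cells with LIF and 2i are TG2A_S2iL (n = 2). The labels spell the 2 altered genotypes "Eeh2-null" and "Eeh2-rescued", read here as Ezh2, and leave unsaid whether the replicates of a group were grown apart. The p-values therefore rest on a spread between libraries that may be technical. That spread was estimated for each gene over all 22 libraries together, not from the 2 compared groups alone.

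Glycolysis turns glucose into pyruvate in the cytosol. Slc2a1 and Slc2a3 encode GLUT1 and GLUT3, which carry glucose into the cell, and hexokinases trap it as glucose 6-phosphate. Phosphofructokinase commits the sugar to the pathway, phosphoglycerate kinase makes ATP, pyruvate kinase makes pyruvate and a further ATP, and lactate dehydrogenase interconverts pyruvate and lactate. The enzyme is a tetramer of A and B subunits, encoded by Ldha and Ldhb. Pluripotent cells are known for high glycolytic flux, and several of these genes are known targets of the hypoxia-inducible factors and of Myc.

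Each library held 13.59 to 26.28 M estimated counts in total. Ezh2 held 0 to 6 counts in the 5 knockout libraries, 1738 or more in every other library, and 8932 and 9943 in the rescued ones. Summed over 8 PrE markers, the 6 PrE libraries held 6988 to 8607 CPM, and KO10_SL held 906, 769.9 and 762 CPM against 52.9 and 48.1 CPM in the rescued libraries. Summed over 8 ESC markers, the 16 ESC libraries held 3210 to 5376 CPM and the 6 PrE libraries 558 to 1144 CPM. Some libraries of the C57 and iPrE groups also held fibroblast marker RNA, at most 2086 CPM in C57_PrESC replicate 2, and their values stand beside the results they touch. Summed over 10 macrophage markers, the ESC libraries held 4.13 to 16.7 CPM, iPrE1 31.3 and 17.3 CPM, iPrE2 20.3 and 52.6 CPM and C57_PrESC 61.5 and 186 CPM. Only in C57_PrESC replicate 2 were all 10 detected, Lyz2 holding 1.49 and 96.9 CPM in the C57_PrESC libraries, and Ptprc was at 0 in 1 library of each PrE group. The part of macrophage RNA in the results was not tested. In bulk RNA, fewer cells of a type and less RNA per cell cannot be told apart.

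Scaled to transcript length, Pkm was the most abundant of the 10 in TG2A_ESC at 1619.9 ± 280.1 CPM per kb (mean ± SD, n = 2). Ldha followed at 654 CPM per kb, Pgk1 at 426 and Ldhb at 245, whereas Hk1 was lowest at 23.3 CPM per kb. The order differed in the iPrE sets. Pgk1 led in iPrE1 at 982 ± 177 CPM per kb and in iPrE2 at 1276 ± 274 CPM per kb, ahead of Pkm at 806 and 917. Pgk1 was above Pkm in each of the 4 iPrE libraries, although the ranges of the 2 genes over the libraries of a set overlapped in both. In C57_PrESC Pkm led at 951 ± 214 CPM per kb, with Pgk1 next at 776 ± 70.9 and their ranges overlapping. Ldhb was the lowest of the 10 in all 3 PrE groups, at 10.6, 4.58 and 3.56 CPM per kb in iPrE1, iPrE2 and C57_PrESC.

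**Figure D1:**
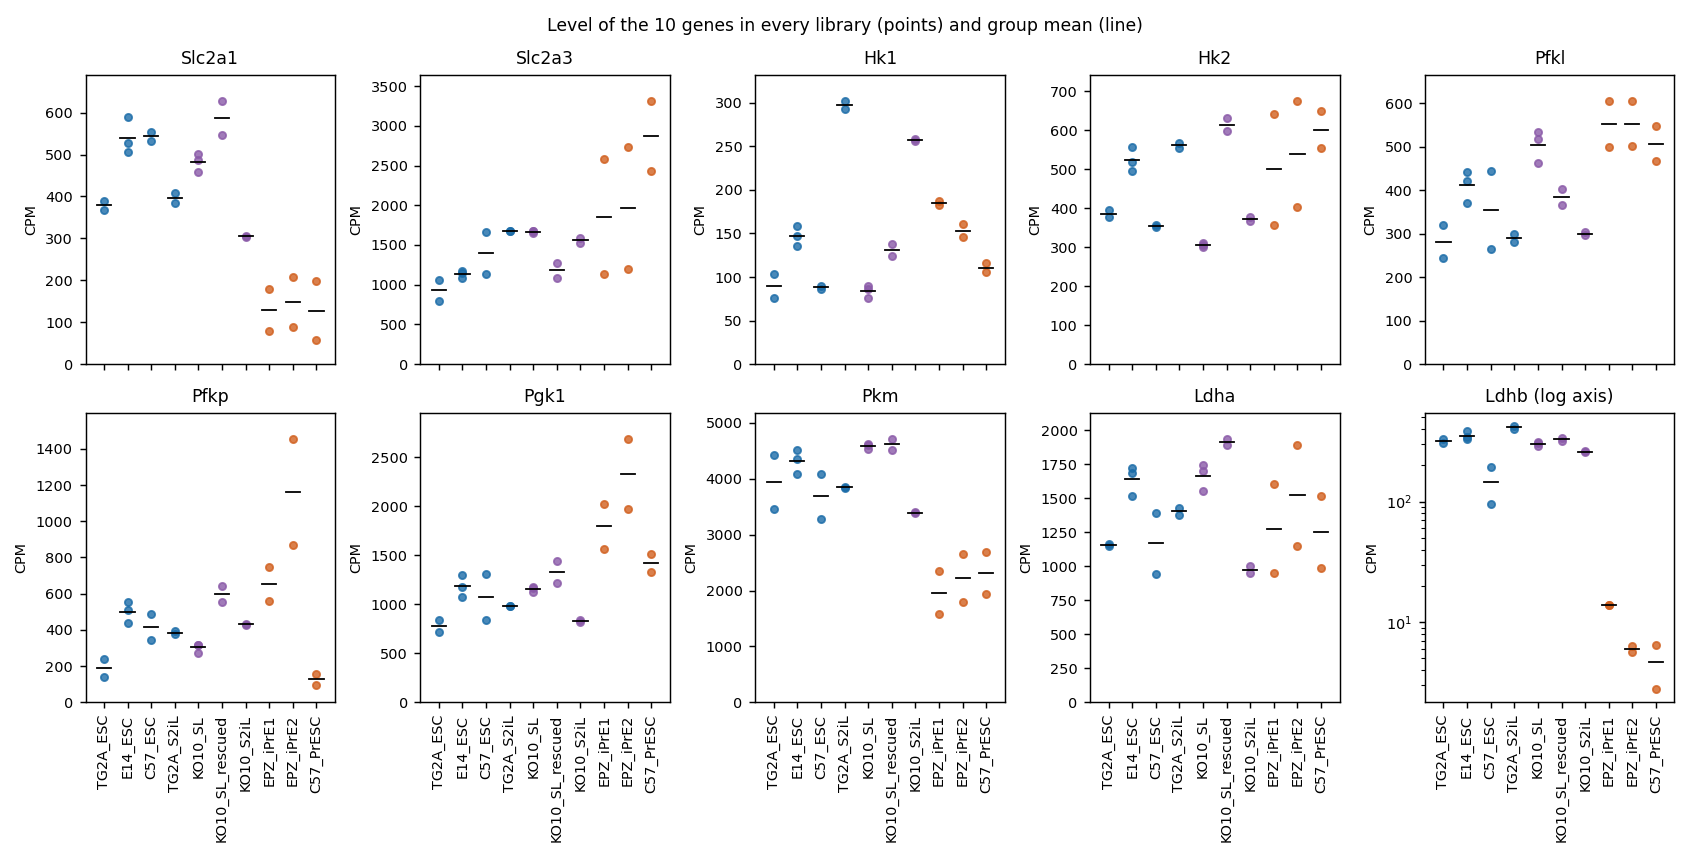
Level in CPM of each of the 10 genes in all 22 libraries, 1 panel per gene, with a point per library (blue for wild-type ESCs, purple for the knockout clone and its rescue, orange for PrE cells) and a line at each group mean; the Ldhb axis is logarithmic and the others start at 0. Slc2a1, Pkm and Ldhb are low in all 6 PrE libraries, and Hk1 is highest in the 4 libraries with 2i.

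The first comparisons set PrE stem cells against ESCs. In both E14-derived PrE sets, Slc2a3, Hk1, Pfkl, Pfkp and Pgk1 were higher than in TG2A_ESC, and Slc2a1, Pkm and Ldhb were lower. These were 8 of 10 genes called at an adjusted p below 0.05 (edgeR) in each set, where 60.1% of all tested genes were called in iPrE1 (27.9% higher, 32.2% lower) and 62.2% in iPrE2 (28.8% higher, 33.4% lower). In C57_PrESC against C57_ESC 8 of 10 were called as well, 4 higher and 4 lower, against 60.6% of all genes (27.3% higher, 33.4% lower). There Slc2a3, Hk1, Hk2 and Pfkl rose, and Slc2a1, Pfkp, Pkm and Ldhb fell. The iPrE1 and iPrE2 comparisons share the TG2A_ESC libraries, so their agreement is not independent. TG2A_ESC had the lowest mean of the 10 groups for Slc2a3, Pfkl and Pgk1. E14_ESC, the other wild-type E14 set, was higher than TG2A_ESC in Hk1, Pfkl, Pfkp and Pgk1, as given below. The iPrE sets were not tested against E14_ESC.

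The median change over the 10 genes was 0.67 in iPrE1, 0.63 in iPrE2 and 0.21 in C57_PrESC, beside -0.07, -0.11 and -0.09 over all tested genes. The count in the C57 comparison was the least stable of the 3: it was 5 without C57_ESC replicate 2 or without C57_PrESC replicate 2, and 3 when the spread was estimated from these 4 libraries alone. It was 7 to 9 in iPrE1 and 7 to 10 in iPrE2 under all alternatives. The share of all genes called under each alternative is not given, here or below, so such counts stand without a background.

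**Figure D2:**
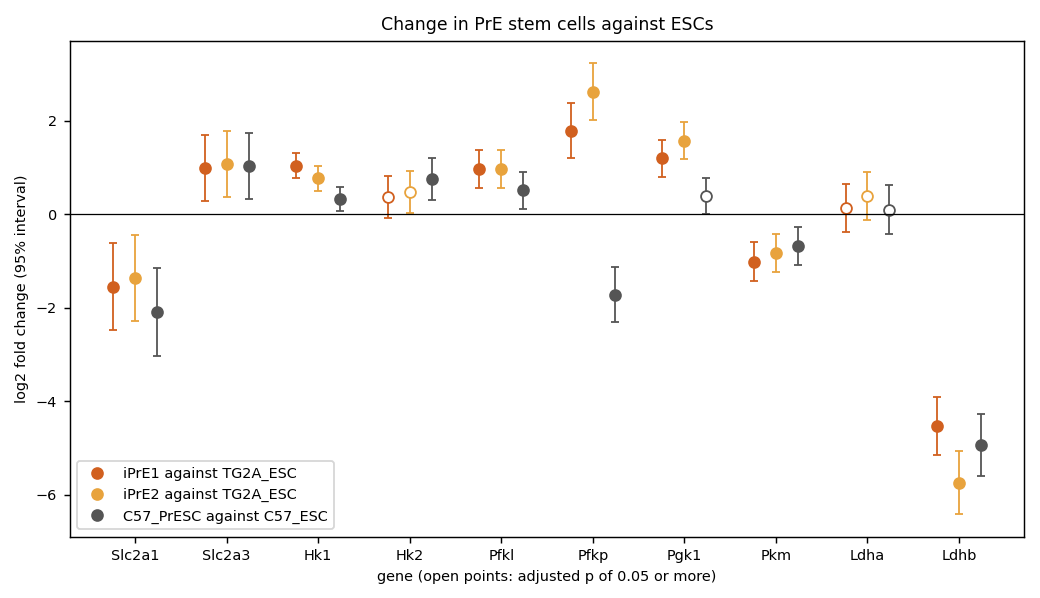
Log2 fold change of the 10 genes in iPrE1 and iPrE2 against TG2A_ESC and in C57_PrESC against C57_ESC (y axis), with bars for the 95% interval and open points where the adjusted p is 0.05 or more. Ldhb lies below -4 in all 3 comparisons, and Pfkp lies above 0 in both iPrE sets and below 0 in C57_PrESC.

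Slc2a1 (chr4:119108711-119137983, plus strand in GRCm38) encodes GLUT1, the transporter found in most cell types. TG2A_ESC held 390.1 and 367 CPM, iPrE1 179 and 79.9 CPM and iPrE2 87.6 and 207 CPM. The C57_ESC libraries held 533 and 555 CPM and the C57_PrESC libraries 57.5 and 198 CPM. All 6 PrE libraries lay below all 16 ESC libraries, whose lowest value was 304 CPM in KO10_S2iL, but replicates of each PrE group lay more than 2-fold apart. Slc2a1 fell in all 3 comparisons, with log2 changes of -1.54 (SE 0.44, adjusted p = 0.00576) in iPrE1, -1.36 (SE 0.43, adjusted p = 0.0119) in iPrE2 and -2.09 (SE 0.44, adjusted p = 0.00064) in C57_PrESC. The call was lost without iPrE1 replicate 2 (-1.07) and, in the other set, without iPrE2 replicate 1 (-0.87).

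Slc2a3 (chr6:122727809-122801640, minus strand) encodes GLUT3, a transporter with high affinity for glucose that is prominent in neurons and the early embryo. TG2A_ESC held 799 and 1058 CPM, iPrE1 2577 and 1131 CPM and iPrE2 1195 and 2732 CPM. C57_ESC held 1662 and 1139 CPM and C57_PrESC 2434 and 3314 CPM. Within these comparisons no library of a PrE group was below its control libraries, yet 1 replicate of each iPrE set was close to them. The changes were 1.0 (SE 0.34, adjusted p = 0.0166) in iPrE1, 1.08 (SE 0.34, adjusted p = 0.0102) in iPrE2 and 1.04 (SE 0.34, adjusted p = 0.0134) in C57_PrESC. Each of the 3 calls was lost in 2 of 4 fits that left out a library. The iPrE1 change was 0.26 without iPrE1 replicate 1 and 0.85 without TG2A_ESC replicate 1, and the iPrE2 change was 0.36 without iPrE2 replicate 2 and 0.92 without TG2A_ESC replicate 1. The C57 change was 0.80 without C57_ESC replicate 2 and 0.79 without C57_PrESC replicate 2. The ratio of Slc2a3 to Slc2a1 counts was 1.98 to 5.21 in the 16 ESC libraries and 13.2 to 42.3 in the 6 PrE libraries, with no overlap.

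Hk1 (chr10:62268855-62379908, minus strand), the hexokinase found in most tissues, stood at 103 and 75.9 CPM in TG2A_ESC, 187 and 183 CPM in iPrE1 and 146 and 160.5 CPM in iPrE2. It rose by 1.05 (SE 0.13, adjusted p = 1.83e-06) and 0.77 (SE 0.12, adjusted p = 4.52e-05). In E14_ESC Hk1 stood at 135, 159 and 147 CPM, overlapping iPrE2 but not iPrE1. In the C57 line it stood at 86.5 and 90.1 CPM in ESCs and 106 and 116 CPM in PrE cells, a change of 0.33 (SE 0.12, adjusted p = 0.0316). The libraries did not overlap in any of the 3, but the C57 call held in only 1 of 4 fits that left out a library. Hk2 (chr6:82725025-82774454, minus strand), the hexokinase that is insulin-responsive in muscle and fat and high in many tumours, stood at 395 and 378 CPM in TG2A_ESC, 641 and 358 CPM in iPrE1 and 403 and 675 CPM in iPrE2. The replicates of iPrE1 fell on both sides of TG2A_ESC, and neither change was called, at 0.37 (SE 0.21, adjusted p = 0.141) and 0.48 (SE 0.21, adjusted p = 0.0587). In the C57 line Hk2 rose by 0.76 (SE 0.21, adjusted p = 0.00541), from 352 and 358 CPM to 553 and 648 CPM, with no overlap.

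Phosphofructokinase is built from liver (Pfkl), platelet (Pfkp) and muscle (Pfkm) subunits. Pfkl (chr10:77986947-78010083, minus strand) stood at 244 and 319 CPM in TG2A_ESC, 605 and 499 CPM in iPrE1 and 501 and 604 CPM in iPrE2. It rose by the same amount in both sets, 0.97 (SE 0.19, adjusted p = 0.000301) and 0.97 (SE 0.19, adjusted p = 0.000287), and all 4 iPrE libraries were above both controls. In the C57 line it moved from 444 and 265 CPM to 468 and 547 CPM, a call of 0.52 (SE 0.19, adjusted p = 0.0255) that was lost in 2 of 4 fits that left out a library. The higher ESC library was close to the lower PrE library.

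Pfkp (chr13:6579768-6648777, minus strand) was the gene of the 10 whose change differed most between the iPrE sets and the C57 line. TG2A_ESC held 239 and 138 CPM, iPrE1 749 and 559 CPM and iPrE2 870.4 and 1454 CPM, so it rose 3.47-fold and 6.17-fold, by 1.80 (SE 0.28, adjusted p = 3.37e-05) and 2.63 (SE 0.29, adjusted p = 6.61e-07). E14_ESC held 508, 554 and 439 CPM, below every iPrE library but close to the lower iPrE1 library. The C57 cells went the other way. C57_ESC held 485 and 346 CPM and C57_PrESC 95.9 and 157 CPM, 3.29-fold lower (-1.72 (SE 0.28, adjusted p = 5.59e-05)). The groups did not overlap in any of the 3 comparisons, and each call held in every fit that left out a library. The 2 control groups themselves differed, Pfkp being higher in C57_ESC than in TG2A_ESC by 1.14 (SE 0.28, adjusted p = 0.00369), a call lost without TG2A_ESC replicate 2 (0.81) and with only those groups in the fit (adjusted p = 0.0651). The iPrE1 libraries held 1.24 and 1.12 Pfkp counts per Pfkl count and the iPrE2 libraries 1.74 and 2.41, while the ratio was 0.205 and 0.287 in C57_PrESC. Pitrm1 overlaps Pfkp on the opposite strand and held 2374.51 to 4905.73 counts per library, and the strand setting of the counting is not given in the sources used here.

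Pgk1 (chrX:106187100-106203699, plus strand) is X-linked. TG2A_ESC held 717 and 839.8 CPM, iPrE1 2021 and 1564 CPM and iPrE2 1975 and 2683 CPM. All 4 iPrE libraries were above every ESC library of the series, whose highest value was 1437 CPM in the rescued cells. Pgk1 rose by 1.20 (SE 0.19, adjusted p = 2.95e-05) in iPrE1 and 1.58 (SE 0.19, adjusted p = 1.57e-06) in iPrE2. In C57_PrESC it stood at 1326 and 1509 CPM against 1311 and 840.0 CPM, a change of 0.40 (SE 0.18, adjusted p = 0.0705) with the higher ESC library just below the lower PrE library. The median change of 624 X-linked genes was -0.30 in iPrE1, -0.20 in iPrE2 and -0.44 in the C57 comparison, against -0.07, -0.10 and -0.08 for 16550 autosomal genes. C57_ESC and C57_PrESC also differed in Xist (5.11) and in the Y-linked Ddx3y (6.64). The ESC libraries held 1 and 59 Ddx3y counts and the PrE libraries 2327 and 2577. A difference between lines and one between cell states therefore cannot be told apart there. Xist was also higher in iPrE1 (4.31, adjusted p = 4.63e-08) and iPrE2 (2.78, adjusted p = 4.74e-06) than in TG2A_ESC. Ddx3y was higher in iPrE1 (1.30, adjusted p = 0.00579) and not called in iPrE2 (-0.32, adjusted p = 0.467). Both genes were lower in iPrE2 than in iPrE1, Xist at -1.53 and Ddx3y at -1.62.

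The stretch before the Pgk1 start (chrX:106186850-106187099, plus strand, RefSeq start on GRCm38.p6) is printed because the pathway's known regulators have short recognition letters that can be read in it. The letters ACGTG and GCGTG, the core bound by hypoxia-inducible factors, were searched on both strands in the 250 bases before each start. Either was found in 38.6% of 32851 RefSeq promoters, and 2 or more matches in 16.7%, where 1 CACGTG counts as 2. Both letters contain CG, and the Pgk1 stretch holds 17 CG against a median of 6 in these promoters. The shares are therefore not those of promoters with a like CG count. Capitals mark the matches. In the same search Pfkp held 3 matches, Hk2 and Slc2a1 2 each, Pfkl 1, and Hk1 and Pkm 0. Those of Ldha and Ldhb are given below. A match is not a shown binding site.

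Pgk1: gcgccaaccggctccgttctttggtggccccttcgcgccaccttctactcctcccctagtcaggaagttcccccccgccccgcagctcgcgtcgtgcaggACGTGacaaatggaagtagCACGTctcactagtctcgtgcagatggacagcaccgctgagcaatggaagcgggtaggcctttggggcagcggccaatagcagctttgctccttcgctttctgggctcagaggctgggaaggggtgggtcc

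Pkm (chr9:59656368-59679375, plus strand) encodes the pyruvate kinase of most non-liver tissues, and gene counts cannot separate its M1 and M2 splice forms. TG2A_ESC held 3458 and 4421 CPM, iPrE1 2342 and 1577 CPM and iPrE2 1802 and 2658 CPM. C57_ESC held 4090.2 and 3287 CPM and C57_PrESC 1943 and 2681 CPM. All 6 PrE libraries were below all 16 ESC libraries, whose lowest was 3287 CPM in C57_ESC. Pkm fell, with log2 changes of -1.01 (SE 0.20, adjusted p = 0.000288) in iPrE1, -0.82 (SE 0.20, adjusted p = 0.00157) in iPrE2 and -0.67 (SE 0.19, adjusted p = 0.00669) in C57_PrESC, the last call lost in 2 of 4 fits that left out a library.

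Ldha (chr7:46841475-46855627, plus strand) encodes the A subunit, which is predominant in muscle and in many glycolytic cells. TG2A_ESC held 1148 and 1163 CPM, iPrE1 1602 and 948 CPM, iPrE2 1148 and 1893 CPM, C57_ESC 1392 and 944 CPM and C57_PrESC 989 and 1516 CPM. The groups overlapped, and no change was called. The changes were 0.14 (SE 0.25, adjusted p = 0.638) with a 95% interval of -0.38 to 0.66 in iPrE1, 0.40 (SE 0.25, adjusted p = 0.172) with -0.12 to 0.92 in iPrE2, and 0.10 (SE 0.25, adjusted p = 0.75) with -0.42 to 0.62 in C57_PrESC.

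Ldhb (chr6:142490249-142507957, minus strand) encodes the B subunit, which is predominant in heart. It had the largest change of the 10 genes in all 3 comparisons. TG2A_ESC held 309 and 329 CPM, iPrE1 13.7 and 14 CPM and iPrE2 5.63 and 6.32 CPM, 23-fold and 53.3-fold lower. C57_ESC held 95.4 and 194 CPM and C57_PrESC 2.78 and 6.52 CPM, 30.7-fold lower. The changes were -4.53 (SE 0.30, adjusted p = 1.74e-09), -5.74 (SE 0.32, adjusted p = 2.66e-10) and -4.94 (SE 0.31, adjusted p = 1.27e-09), and when single libraries were left out they stayed called and lay between -4.54 and -4.46, between -5.82 and -5.66, and between -5.71 and -4.32. The PrE values rest on 41 to 179 counts per library. The lowest ESC library of the series, C57_ESC replicate 1, still held 95.4 CPM.

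The ratio of Ldha to Ldhb counts was 3.36 to 14.6 in the 16 ESC libraries and 67.9 to 356 in the 6 PrE libraries. The stretches before their starts are printed side by side because the subunits of 1 enzyme differed in these comparisons. They lie at chr7:46845554-46845803, plus strand and chr6:142507958-142508207, minus strand (RefSeq starts on GRCm38.p6), and capitals mark ACGTG and GCGTG on either strand. The Ldha stretch lies inside the gene coordinates given above, so this RefSeq start is downstream of the gene start used there (46841475). The Ldha stretch holds 5 matches to ACGTG over both strands, 4 of them from 2 copies of CACGTG, the E-box that Myc and related factors bind, which reads the same on both strands. CACGTG was found in 6.02% of RefSeq promoters. It contains CG, and the Ldha stretch holds 25 CG and the Ldhb stretch 14, against a median of 6 in those promoters. That share is therefore not one for promoters with a like CG count. The Ldhb stretch holds 1 match, to GCGTG.

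Ldha: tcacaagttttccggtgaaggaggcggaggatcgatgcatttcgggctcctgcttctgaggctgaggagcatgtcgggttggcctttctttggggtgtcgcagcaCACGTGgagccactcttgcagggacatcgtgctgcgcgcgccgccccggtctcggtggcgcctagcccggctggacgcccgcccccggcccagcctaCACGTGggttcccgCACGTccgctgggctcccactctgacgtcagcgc
Ldhb: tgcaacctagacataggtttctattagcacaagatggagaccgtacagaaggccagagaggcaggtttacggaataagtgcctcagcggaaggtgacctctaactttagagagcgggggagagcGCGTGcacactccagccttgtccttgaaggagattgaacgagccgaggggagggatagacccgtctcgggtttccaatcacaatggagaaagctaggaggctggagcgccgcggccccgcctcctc

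Few genes were called between the 2 iPrE sets, each of 2 libraries. Of all tested genes 3.91% were called between iPrE2 and iPrE1 (1.75% higher, 2.16% lower), and of the 10 genes only Ldhb was, at -1.21 (SE 0.31, adjusted p = 0.0325). That call was lost in each fit that left out 1 of the 4 libraries, though the change stayed between -1.30 and -1.14. Pfkp was not called at 0.83 (SE 0.27, adjusted p = 0.114), although its libraries did not overlap, and the other 8 changes lay between -0.27 and 0.38. Unadjusted p (edgeR) was below 0.05 for 3 of the 10 genes, and DESeq2 called 2.

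The difference between the mean iPrE change and the C57 change was tested as a contrast of its own. Hk1 (0.58 (SE 0.16, adjusted p = 0.0111)), Pfkp (3.93 (SE 0.38, adjusted p = 1.45e-06)) and Pgk1 (0.99 (SE 0.24, adjusted p = 0.00444)) were called, all higher in the iPrE sets, 3 of 10 genes against 35.1% of all genes (18.8% higher, 16.3% lower). For Ldhb the difference was -0.19 with a 95% interval of -0.99 to 0.61, and for Slc2a3 it was 0.00 with -0.93 to 0.93. Of the 3 calls, that of Hk1 was lost without TG2A_ESC replicate 2, at 0.38. With only the compared groups in the fit Pfkp alone was called, Hk1 and Pgk1 having adjusted p = 0.0886 and 0.072, and with all groups the count was 5 without C57_ESC replicate 2. Line and derivation differ between the 2 sides of this contrast and cannot be told apart. Xist (-1.56) and Ddx3y (-6.15) also differed in it, and whether sex chromosome content differs was not tested.

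The 2 replicates of each PrE group differed in these genes. All 10 genes were higher in replicate 2 than in replicate 1 of iPrE2, with a median of 0.64 on the log2 scale, and of C57_PrESC, with a median of 0.45. In iPrE1 all but Ldhb were lower in replicate 2, with a median of -0.50. The medians over 15 hypoxia targets outside glycolysis were 0.74, 0.62 and -0.62 in the same groups. The library with higher levels of the 10 genes was also the one with more fibroblast marker RNA: summed over 10 markers and in the order of the replicates, iPrE1 held 167 and 27.9 CPM, iPrE2 59.5 and 278 CPM and C57_PrESC 29 and 2086 CPM. C57_ESC held 21.7 and 333 CPM, and there 6 of the 10 genes were lower and 4 higher in replicate 2, with a median of -0.40. The 4 were Slc2a1, Hk1, Hk2 and, with the largest difference of them at 1.02, Ldhb. TG2A_ESC held 18.7 and 7.91 CPM of these fibroblast markers. The C57_ESC libraries also differed in PrE markers: 0 of 8 were higher in replicate 2, with a median of -1.98. The part of this in the C57 results was not tested. The part of fibroblast RNA in these differences was not tested beyond leaving those libraries out.

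**Figure D3:**
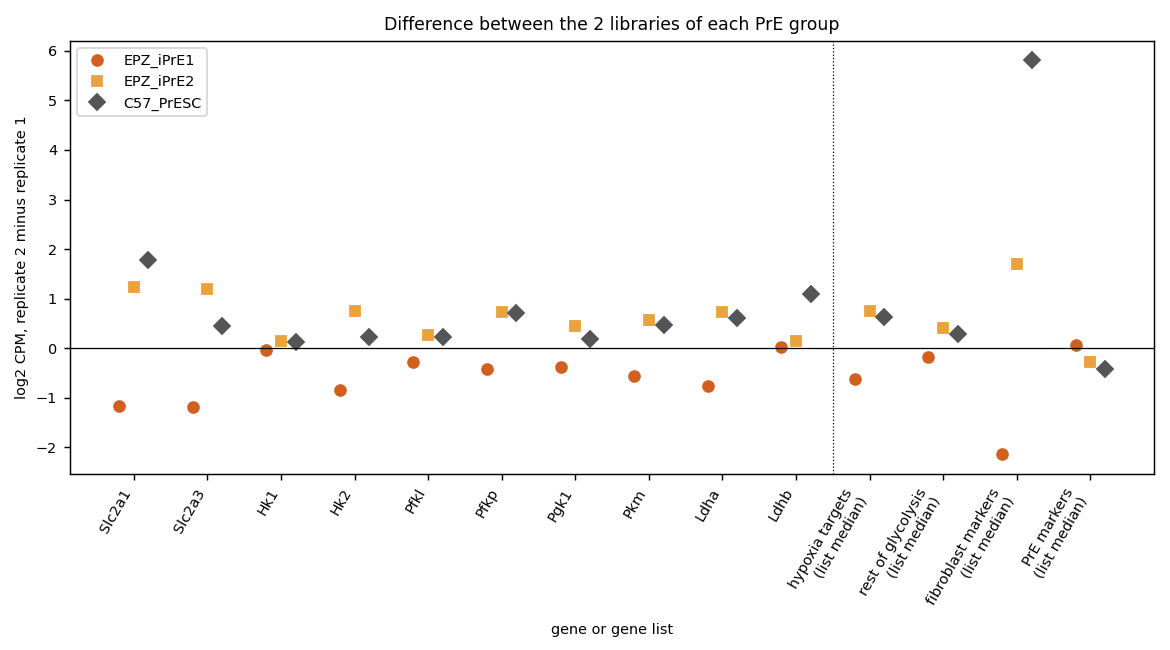
Log2 CPM of replicate 2 minus replicate 1 (y axis) within each PrE group, for the 10 genes and for the median of gene lists (x axis). iPrE1 lies below 0 for 9 of the 10 genes, and iPrE2 and C57_PrESC lie above 0 for all 10.

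Without the library with more fibroblast RNA in iPrE1, iPrE2, C57_ESC and C57_PrESC, an alternative chosen after the data were seen, each of these groups is 1 library assumed to vary like the rest. The C57_ESC library kept is replicate 1, the one with the higher PrE marker levels. The share of all genes called in this fit is not given, so its counts of called genes stand without a background. The changes of Ldhb were then -4.50, -5.81 and -5.11, those of Slc2a1 -2.23, -2.09 and -3.22, and those of Pkm -1.31, -1.11 and -1.08, each further below 0 than with all libraries except Ldhb in iPrE1. Pfkp remained higher in iPrE1 (1.58) and iPrE2 (2.23) and lower in C57_PrESC (-2.35). The rise of Slc2a3 shrank to 0.29 (adjusted p = 0.0554) in iPrE1, 0.38 (adjusted p = 0.0153) in iPrE2 and 0.54 (adjusted p = 0.00505) in C57_PrESC. Ldha turned to -0.28 (adjusted p = 0.0204) in iPrE1 and -0.50 (adjusted p = 0.000978) in C57_PrESC, and in C57_PrESC Pfkl shrank to 0.07 (adjusted p = 0.763) and the call of Hk1 was lost at 0.28 (adjusted p = 0.189). Then 4 genes were called higher and 4 lower in iPrE1, 5 higher and 3 lower in iPrE2, and 2 higher and 5 lower in C57_PrESC.

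The rest of the pathway was read from lists chosen with earlier results of these data known. Of 16 tested genes for the other glycolytic enzymes, 8 rose and 4 fell in iPrE1, 9 rose and 4 fell in iPrE2 and 6 rose and 6 fell in C57_PrESC, with medians of 0.49, 0.62 and 0.25. Hkdc1, a putative hexokinase, rose by 5.68, 6.72 and 5.54 in the 3 comparisons, and Pgam2, the muscle phosphoglycerate mutase, by 6.01, 6.30 and 2.49. The enolase Eno3 fell, with changes of -2.34, -2.34 and -1.83. Of 9 tested genes for other sugar transporters, 0, 0 and 1 rose and 3, 4 and 5 fell. Beside both lists, 60.1%, 62.2% and 60.6% of all genes were called. The shares were 27.9%, 28.8% and 27.3% higher and 32.2%, 33.4% and 33.4% lower. For the transporters the shares called in iPrE1 and iPrE2 were below those of all genes. Slc2a5, the fructose transporter, fell, with changes of -4.07, -5.77 and -4.93, and Slc2a4, which encodes GLUT4, fell, with changes of -2.56, -3.34 and -4.46. Summed over the list, these transporters held 11.3 to 15.4 CPM in the PrE libraries and 23.3 to 38.9 CPM in the ESC libraries, far below Slc2a1 and Slc2a3.

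Most hypoxia targets outside glycolysis rose. Of 15 genes, 11 rose and 0 fell in iPrE1, 12 rose and 0 fell in iPrE2 and 9 rose and 2 fell in C57_PrESC, with medians of 2.73, 2.24 and 0.93. Of all genes 27.9%, 28.8% and 27.3% were called higher and 32.2%, 33.4% and 33.4% lower. P4ha2, a collagen prolyl hydroxylase, rose by 5.28, 5.21 and 3.79, the carbonic anhydrase Car12 by 5.40, 5.51 and 1.58, and Ndrg1 by 5.11, 5.38 and 2.06. Ddit4 (-1.51) and Kdm3a (-0.78) fell in C57_PrESC. Without the libraries with more fibroblast RNA, 10, 11 and 7 of the 15 rose and 1, 1 and 5 fell. The hypoxia list summed to 2110 to 3802 CPM in the PrE libraries and to 533 to 1175 CPM in the ESC libraries. The share of all genes called without the libraries with more fibroblast RNA is not given. The oxygen level of the cultures is not in the labels.

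Among 22 regulators of glycolysis and of the hypoxia response, 10 rose and 8 fell in iPrE1, 11 rose and 8 fell in iPrE2 and 7 rose and 8 fell in C57_PrESC. The shares of all genes called were 60.1%, 62.2% and 60.6%. Myc fell, with changes of -3.99, -3.93 and -0.59. Epas1, which encodes HIF-2 alpha, fell, with changes of -2.98, -3.82 and -4.91, while Egln1, a prolyl hydroxylase that marks HIF for degradation, rose by 3.61, 3.62 and 2.0. Pfkfb2 rose by 2.62, 2.98 and 2.87. It encodes an enzyme that makes or removes fructose 2,6-bisphosphate, an activator of phosphofructokinase. Lin28b, an RNA-binding protein of stem cells, fell in the iPrE sets, with changes of -7.26 and -6.80, and in the C57 line it held 51.9 and 45.7 CPM in ESCs and 0 and 0.0582 CPM in PrE cells.

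Of 20 tested genes that handle pyruvate and lactate, 4 rose and 7 fell in iPrE1, 6 rose and 5 fell in iPrE2 and 7 rose and 9 fell in C57_PrESC. Beside these and the next 2 lists, 60.1%, 62.2% and 60.6% of all genes were called. For pyruvate and lactate the shares in iPrE1 and iPrE2 were below those of all genes. Bsg, the partner that brings lactate transporters to the membrane, rose by 1.72, 1.69 and 1.51, and the lactate exporter gene Slc16a3 rose by 1.82 and 2.05 in the iPrE sets, with 0.65 (adjusted p = 0.101) in C57_PrESC. Mpc1, a subunit of the mitochondrial pyruvate carrier, fell, with changes of -1.75, -1.62 and -1.11. Of 13 tested genes of gluconeogenesis and glycogen, 7 rose and 1 fell, 7 rose and 1 fell and 5 rose and 4 fell. The glucose 6-phosphate transporter Slc37a4 rose by 2.44, 2.91 and 3.05 and the glycogen branching enzyme Gbe1 by 3.08, 3.60 and 1.68, while the muscle glycogen phosphorylase Pygm fell, with changes of -1.52, -1.94 and -1.99. Of 8 pentose phosphate genes, 2 rose and 3 fell, 3 rose and 4 fell and 3 rose and 4 fell, with H6pd, the dehydrogenase of the endoplasmic reticulum, at -2.04, -3.06 and -2.59.

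The next comparisons concern Ezh2. In the knockout clone, Hk1, Hk2 and Pfkp were lower than in E14_ESC, and all 3 were higher again in the rescued cells than in the knockout. These were 3 of 10 genes in each comparison, against 48.6% of all genes called in KO10_SL against E14_ESC (25.8% higher, 22.7% lower) and 45% in the rescued cells against KO10_SL (20.9% higher, 24.1% lower). Both comparisons use the KO10_SL libraries. KO10_SL also held more PrE marker RNA than the other serum and LIF groups, as given above, and the part of this in the changes was not tested.

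Hk1 stood at 135, 159 and 147 CPM in E14_ESC, 76.1, 89.6 and 86.2 CPM in KO10_SL and 138 and 124 CPM in the rescued cells. The knockout libraries were below all others of these groups, at -0.81 (SE 0.10, adjusted p = 7.46e-06) against E14_ESC, and the rescued cells were higher than the knockout by 0.65 (SE 0.11, adjusted p = 0.000203). Hk2 stood at 496, 556 and 519.6 CPM, 311, 304 and 299.6 CPM and 631 and 597 CPM in the same order. It was lower in the knockout, at -0.78 (SE 0.17, adjusted p = 0.00143), and higher after rescue by 1.01 (SE 0.19, adjusted p = 0.000427), again without overlap, the rescued libraries being the highest.

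Pfkp stood at 508, 554 and 439 CPM in E14_ESC, 274, 318 and 318 CPM in KO10_SL and 643 and 553 CPM in the rescued cells. It was lower in the knockout, at -0.72 (SE 0.22, adjusted p = 0.0132), a call lost without E14_ESC replicate 2 (-0.64), and higher after rescue by 0.98 (SE 0.24, adjusted p = 0.00378). The ratio of Pfkp to Pfkl counts was 0.593, 0.598 and 0.615 in the knockout libraries, against 1.37, 1.25 and 1.04 in E14_ESC and 1.60 and 1.51 in the rescued cells. Pfkl itself was not called, at 0.29 (SE 0.15, adjusted p = 0.125) and -0.39 (SE 0.17, adjusted p = 0.0774), with 462, 532 and 517 CPM in the knockout and 371, 442 and 421 CPM in E14_ESC, which did not overlap.

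None of the other 7 genes was called in either comparison with all groups fitted and low-count genes left out. With only the compared groups in the fit, 7 of 10 genes were called against E14_ESC, 2 higher and 5 lower. In the rescue 9 were then called, 7 higher and 2 lower. With no low-count filter the numbers were 5 (2 higher, 3 lower) and 5 (3 higher, 2 lower). The shares of all genes called under these settings are not given, so whether these numbers exceed them was not tested. Slc2a3 stood at 1152, 1168 and 1083 CPM in E14_ESC, 1676, 1649.9 and 1675 CPM in KO10_SL and 1274 and 1087 CPM in the rescued cells. The knockout libraries were the highest, but neither change was called, at 0.55 (SE 0.27, adjusted p = 0.102) and -0.50 (SE 0.31, adjusted p = 0.201). The changes of Slc2a1, Pgk1, Pkm, Ldha and Ldhb against E14_ESC lay between -0.22 and 0.09, and those after rescue between 0.01 and 0.28. For Ldhb, which was so low in PrE cells, the knockout held 289, 310.3 and 308 CPM against 332, 387 and 342 CPM in E14_ESC, with a 95% interval of the change of -0.65 to 0.20.

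In the rescued cells against E14_ESC, 0 of 10 genes were called by edgeR, 0 had an unadjusted p below 0.05, and DESeq2 called 0. The background was also low, at 0.108% of all genes (0.0285% higher, 0.0798% lower). The 10 changes lay between -0.16 (Hk1) and 0.26 (Pfkp), where the interval was -0.26 to 0.78.

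The result depended on the wild-type group used. Against TG2A_ESC, the knockout cells were higher in Pfkl (0.84 (SE 0.18, adjusted p = 0.00209)) and Pgk1 (0.57 (SE 0.17, adjusted p = 0.0191)) and in no case lower, 2 of 10 genes against 27.7% of all genes (13.6% higher, 14.1% lower). The count was 1 without KO10_SL replicate 2 or 3 and with the replicate number as a block, each time Pfkl, and Pgk1 was not called without TG2A_ESC replicate 1 either. Hk1 (-0.09 (SE 0.11, adjusted p = 0.573)), Hk2 (-0.34 (SE 0.19, adjusted p = 0.198)) and Pfkp (0.69 (SE 0.25, adjusted p = 0.0535)) were not called, and Pfkp was on the other side of 0. The wild-type groups also differed from each other. Hk1 (0.72 (SE 0.12, adjusted p = 0.000398)), Pfkl (0.55 (SE 0.17, adjusted p = 0.031)), Pfkp (1.41 (SE 0.26, adjusted p = 0.00108)) and Pgk1 (0.60 (SE 0.17, adjusted p = 0.0164)) were higher in E14_ESC than in TG2A_ESC, 4 of 10 genes against 24.3% of all genes (11.2% higher, 13.1% lower). The calls of Pfkl and Pgk1 in this last comparison were each lost in 3 of 5 fits that left out a library, and the count was 2 without TG2A_ESC replicate 1 or E14_ESC replicate 3. In C57_ESC against TG2A_ESC, Pfkp was higher (1.14) and Ldhb was lower (-1.14 (SE 0.25, adjusted p = 0.00189)), 2 of 10 genes against 38.9% of all genes (19.8% higher, 19.1% lower), a count that was 4 without C57_ESC replicate 2 and 1 without TG2A_ESC replicate 2.

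**Figure D4:**
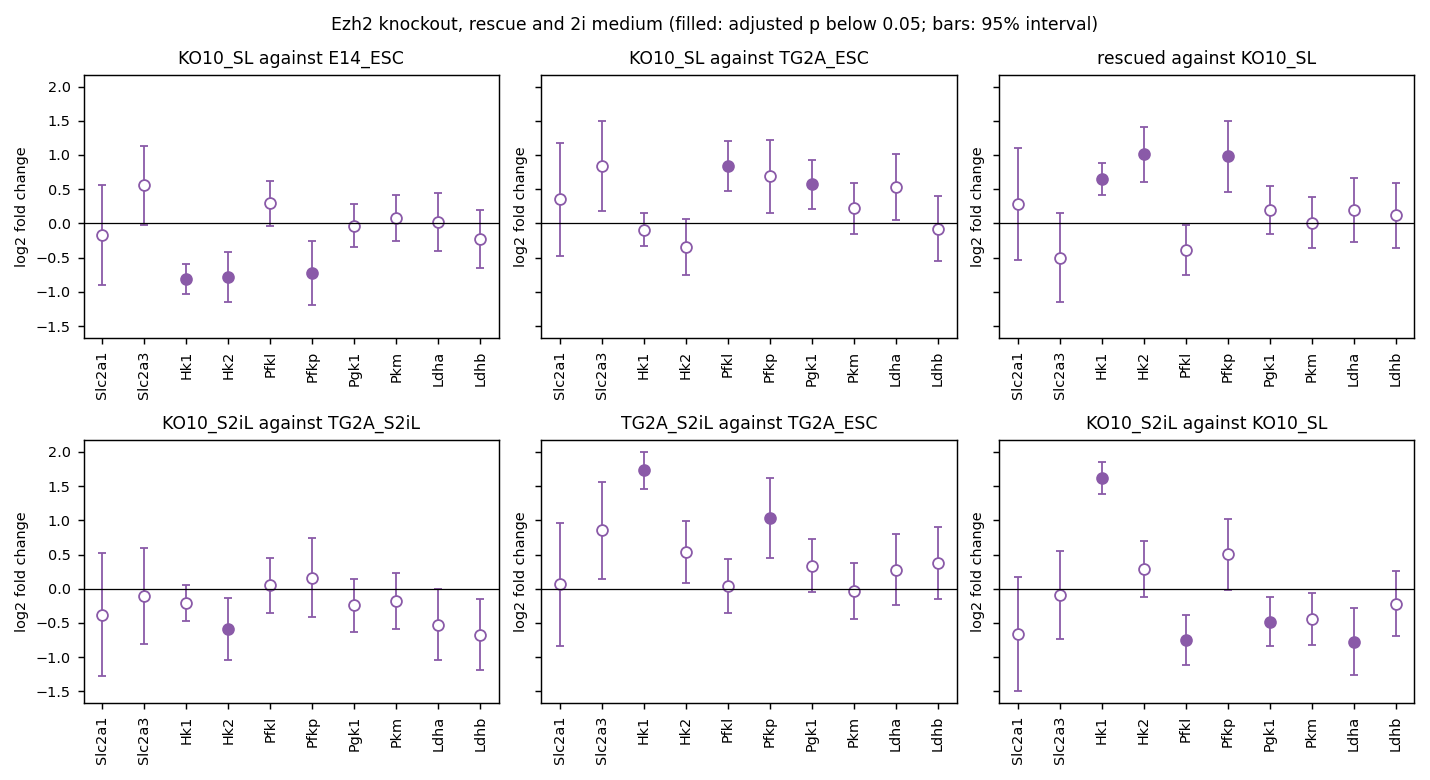
Log2 fold change of the 10 genes (x axis) in the comparisons of the Ezh2 knockout clone, its rescue and the 2i medium (1 panel each), with bars for the 95% interval and filled points where the adjusted p is below 0.05. Hk1, Hk2 and Pfkp lie below 0 in the knockout against E14_ESC and above 0 after rescue, and Hk1 has the largest rise of the 10 in both 2i panels.

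The 2i inhibitors, which block MEK and GSK3, were compared in wild-type cells and in the knockout clone. Hk1 was higher with 2i in both. TG2A_ESC held 103 and 75.9 CPM and TG2A_S2iL 302 and 293 CPM, a 3.32-fold rise (1.73 (SE 0.13, adjusted p = 4.94e-07)). KO10_SL held 76.1, 89.6 and 86.2 CPM and KO10_S2iL 257 and 258 CPM, a 3.06-fold rise (1.62 (SE 0.11, adjusted p = 1.72e-07)). E14_ESC, the other wild-type set without 2i, held 135, 159 and 147 CPM, above TG2A_ESC. The 4 libraries with 2i were the highest of all 22 for Hk1, and both calls held in every fit that left out a library. The ratio of Hk2 to Hk1 counts was 1.42 to 1.89 in these 4 libraries, below every other library. The nearest was iPrE1 replicate 2, the iPrE1 libraries being at 3.43 and 1.96.

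In wild-type cells 2i also went with higher Pfkp, 394 and 375 CPM against 239 and 138 CPM (1.03 (SE 0.28, adjusted p = 0.0126)), a call that held in only 1 of 4 fits that left out a library, so the count was 1 without TG2A_ESC replicate 2 or either TG2A_S2iL replicate. These were 2 of 10 genes against 23.3% of all genes (11.7% higher, 11.6% lower). In E14_ESC, wild type without 2i, Pfkp stood at 508, 554 and 439 CPM, above both TG2A_S2iL libraries. The direction for Pfkp thus depended on the wild-type group, and TG2A_S2iL was not tested against E14_ESC. Slc2a3 (0.85 (SE 0.33, adjusted p = 0.0767)) and Hk2 (0.54 (SE 0.21, adjusted p = 0.0777)) were not called, although neither overlapped between the groups. In the knockout clone, 4 of 10 genes were called with 2i against 36.9% of all genes (19.6% higher, 17.3% lower). Beside the rise of Hk1, there were falls of Pfkl (-0.75 (SE 0.18, adjusted p = 0.00318)), Pgk1 (-0.48 (SE 0.17, adjusted p = 0.0354)) and Ldha (-0.77 (SE 0.23, adjusted p = 0.0145)). Ldha stood at 999.5 and 951 CPM with 2i and 1553, 1741 and 1702 CPM without, Pfkl at 303 and 297 and 462, 532 and 517 CPM, and Pgk1 at 816 and 841 and 1125, 1177 and 1162 CPM. The groups did not overlap for any of the 3. The Pgk1 call was lost in each of 5 fits that left out a library, and without either KO10_S2iL replicate the count was 2. Scaling by library totals alone raised the median of all genes in this comparison from 0.06 to 0.20.

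Whether the knockout changed the genes differently with 2i was tested as an interaction, with TG2A_ESC as the wild-type control without 2i. edgeR called 0 of 10 genes, against 1.95% of all genes (0.838% higher, 1.12% lower). Unadjusted p was below 0.05 for 3 of 10, Pfkl (-0.79 (adjusted p = 0.117)), Pgk1 (-0.81 (adjusted p = 0.101)) and Ldha (-1.05 (adjusted p = 0.112)), and DESeq2 called 2, Pgk1 and Ldha. With 2i in both, the knockout was lower than TG2A_S2iL in Hk2 alone, 378 and 368 CPM against 568 and 555 CPM (-0.59 (SE 0.21, adjusted p = 0.0449)), 1 of 10 genes against 30% of all genes (15.7% higher, 14.3% lower). That call was lost under 2 other scalings and in each fit that left out a library. With only the compared groups in the fit, however, 8 of 10 genes were called, 1 higher and 7 lower. With no low-count filter 3 were called, all lower. The shares of all genes called under these settings are not given. Ldhb (-0.67 (SE 0.25, adjusted p = 0.0514)) was not called, at 263 and 257 CPM against 425 and 403 CPM.

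Other genes around the pathway were also called in the knockout clone. Of all genes 48.6% were called in KO10_SL against E14_ESC and 45% after rescue. Of 13 tested genes of gluconeogenesis and glycogen, 8 rose and 1 fell in KO10_SL against E14_ESC, and 1 rose and 8 fell after rescue. Fbp2, the muscle fructose bisphosphatase, changed by 4.83 (adjusted p = 9.54e-08) and -5.43 (adjusted p = 3.78e-07), the liver glycogen phosphorylase Pygl by 1.17 (adjusted p = 0.00962) and -1.18 (adjusted p = 0.0217), and Ugp2, which makes UDP-glucose for glycogen, by 1.15 (adjusted p = 2.72e-07) and -1.03 (adjusted p = 3.94e-06). Of 16 tested glycolytic enzymes outside the 10, 2 rose and 2 fell in the knockout and 2 rose and 2 fell after rescue, with Hkdc1 changing by 4.76 (adjusted p = 1.51e-05) and -4.89 (adjusted p = 9.7e-05). It held 8.86, 7.56 and 8.35 CPM in the knockout and 0.299, 0.299 and 0.299 CPM in E14_ESC.

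Of 22 regulators, 2 rose and 10 fell in the knockout against E14_ESC and 8 rose and 3 fell after rescue, while 2 rose and 4 fell against TG2A_ESC. Hif3a changed by -2.0 (adjusted p = 0.00045) and 1.50 (adjusted p = 0.00782), and Mycn by -1.47 (adjusted p = 2.51e-05) and 1.24 (adjusted p = 0.000311). Of 15 hypoxia targets, 3 rose and 3 fell in the knockout against E14_ESC and 5 rose and 3 fell after rescue, with P4ha2 at 2.25 (adjusted p = 1.24e-07) and -2.24 (adjusted p = 7.82e-07) and Ddit4 at -1.14 (adjusted p = 0.00645) and 1.13 (adjusted p = 0.0131). Against TG2A_ESC, 7 rose and 0 fell among these targets, 6 rose and 0 fell among the genes of gluconeogenesis and glycogen, and 6 rose and 0 fell among the other glycolytic enzymes, so these counts too differed with the wild-type group. The shares of all genes called in these comparisons were 48.6% against E14_ESC, 45% after rescue and 27.7% against TG2A_ESC. With 2i, Myc fell, at -3.75 (adjusted p = 4.77e-08) in wild-type cells and -3.11 (adjusted p = 1.72e-07) in the knockout. Of the 16 other glycolytic enzymes, 3 rose and 0 fell with 2i in wild-type cells, among them Aldoc, an aldolase (1.55 (adjusted p = 0.00424)), and Adpgk, an ADP-dependent glucokinase (0.79 (adjusted p = 0.0005)). In the knockout, 2 rose and 6 fell with 2i, among them Hkdc1 (-3.12 (adjusted p = 0.00101)). Of all genes 23.3% were called with 2i in wild-type cells (11.7% higher, 11.6% lower) and 36.9% in the knockout (19.6% higher, 17.3% lower).

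Genes with the most similar pattern were sought among the 9446 tested genes whose mean level was 10 CPM or more, by Pearson's r of the group means of log2 CPM over the 10 groups. The split between 7 ESC and 3 PrE groups sets most of r for genes that differ between them, so r is a description of this set of groups. Slc2a1 was most like Lin28b (0.986) and Gfpt2 (0.984), Pkm most like Abcf2 (0.984) and Mif (0.983), and Ldhb most like Asap3 (0.997) and Stmn2 (0.994). For genes with other patterns the closest r was lower, at 0.826 for Ldha with Gm9797, 0.912 for Pfkl with Creb3l1, 0.918 for Hk1 with Fcsk, 0.928 for Hk2 with Ttc37 and 0.935 for Pfkp with Epb41. Slc2a3 was most like Pttg1ip (0.955) and Pgk1 most like Osgin2 (0.92).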

How the data were processed

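The authors deposited 1 table of estimated counts per gene symbol, unscaled, made after trimming and alignment to mm10 (Trim Galore, STAR 2.7.6a and DESeq2 are the tools in the submitters' processing notes). Per library 5.71 to 7.26% of values were fractional, so the values, planned for as raw counts, were rounded. Which program counted the reads, with which annotation and strand option, is not given in the sources used here. Labels call the molecule polyA RNA but name an rRNA depletion kit, so the selection is uncertain.

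In R 4.3.3, edgeR 4.0.16 kept 17547 of 55367 symbols by filterByExpr, scaled libraries by TMM, and fitted 1 coefficient per group to all 22 libraries (12 residual degrees of freedom). The 15 comparisons were contrasts with the quasi-likelihood test, adjusted by Benjamini-Hochberg over all tested genes of a comparison and called at 0.05. CPM uses TMM-scaled totals. SE is the absolute log2 change divided by the square root of F. Coordinates come from GENCODE M21 (GRCm38), promoter sequences from RefSeq (GRCm38.p6), with 9 of 10 genes matched. On simulated counts for iPrE1 against TG2A_ESC (17229 genes), 86 of 100 changes of 1 on the log2 scale were recovered and 100 of 100 changes of 2. Pfkp, Pgk1 and Pkm held fractional values in all 22 libraries, and where these fractions come from was not tested. The genes and lists were chosen with earlier results of these data known. Named genes are the 10, up to 3 called genes per list with the largest changes, and those going against their list, of which 1 is not reported here.

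Alternatives were other scaling (RLE, library totals), no low-count filter, DESeq2 1.42.0, fitting only the compared groups, the replicate number as a block, leaving out each library, and leaving out libraries with more fibroblast RNA.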

Additional observations from a re-analysis of the deposited data

Results flagged for a closer look

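The change from ESCs to PrE stem cells differed between the E14-derived iPrE sets and the C57 line in a direct test for 3 of the 10 genes, where 35.1% of all genes were called. The difference, as the mean iPrE change less the C57 change on the log2 scale, was 3.93 for Pfkp, which rose in both iPrE sets and fell in C57_PrESC. It was 0.99 for Pgk1 and 0.58 for Hk1, both of which had the smaller change in C57_PrESC. With only the compared groups in the fit, Pgk1 (adjusted p = 0.072) and Hk1 (adjusted p = 0.0886) were not called by edgeR.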

How the results depend on the processing

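Of the 49 called changes of single genes over the 15 comparisons, 27 stayed called under every alternative run, 22 lost the call under at least 1, and none changed direction. With only the compared groups in the fit the number of the 10 genes called was 3 in C57_PrESC against C57_ESC, 0 in iPrE2 against iPrE1, 1 in the iPrE less C57 contrast, 7 in KO10_SL against E14_ESC and against TG2A_ESC, 9 in the rescue against KO10_SL, 8 in KO10_S2iL against TG2A_S2iL, 5 in TG2A_S2iL against TG2A_ESC, 10 in KO10_S2iL against KO10_SL, 6 in the interaction, 7 in E14_ESC against TG2A_ESC and 0 in C57_ESC against TG2A_ESC. With no low-count filter the numbers were 2 in iPrE2 against iPrE1, 5 in the iPrE less C57 contrast, 5 and 6 in KO10_SL against E14_ESC and TG2A_ESC, 5 in the rescue against KO10_SL, 3 in KO10_S2iL against TG2A_S2iL, 6 in TG2A_S2iL against TG2A_ESC, 8 in KO10_S2iL against KO10_SL, 6 in the interaction, 8 in E14_ESC against TG2A_ESC and 6 in C57_ESC against TG2A_ESC. DESeq2 called 2 in iPrE2 against iPrE1, 4 in KO10_SL against TG2A_ESC and 2 in the interaction. Scaling by library totals gave 4 in KO10_SL against TG2A_ESC and 0 in KO10_S2iL against TG2A_S2iL, where RLE also gave 0. The replicate block gave 1 in KO10_SL against TG2A_ESC and changed the number by no more than 1.5 times elsewhere. Nothing in the labels says that a number marks a shared source, and the correlation of same-numbered libraries' deviations was -0.0118 to 0.0887 for the 3 numbers of KO10_SL and E14_ESC, 0.308 for C57_PrESC and C57_ESC, -0.477 for iPrE2 and iPrE1, -0.192 for C57_ESC and TG2A_ESC and between -0.0662 and 0.0521 in the other pairs of groups, so the numbers were not taken as pairs. Without the libraries with more fibroblast RNA, 7 were called in the iPrE less C57 contrast and 7 in C57_ESC against TG2A_ESC. The cause of these differences was not tested. The share of all genes called under each alternative is not given here, so these numbers stand without a background.

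When 1 library was left out, the number ran from 7 to 8 in iPrE1, 7 to 9 in iPrE2, 5 to 7 in the C57 comparison, 0 to 0 in iPrE2 against iPrE1, 2 to 5 in the iPrE less C57 contrast, 2 to 3 in KO10_SL against E14_ESC, 1 to 2 in KO10_SL against TG2A_ESC, 0 to 0 in KO10_S2iL against TG2A_S2iL, 1 to 2 in TG2A_S2iL against TG2A_ESC, 2 to 3 in KO10_S2iL against KO10_SL, 2 to 4 in E14_ESC against TG2A_ESC and 1 to 4 in C57_ESC against TG2A_ESC. Scaling by library totals moved the share of higher genes among all called genes from 52.3 to 72.4% in KO10_S2iL against TG2A_S2iL, where the median of all genes moved from 0.01 to 0.17. The share moved from 53.2 to 66.4% in KO10_S2iL against KO10_SL, from 49 to 60.3% in KO10_SL against TG2A_ESC, from 46.2 to 58.9% in E14_ESC against TG2A_ESC and from 42.9 to 63% in the interaction (57.1% with RLE).

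Changes that were not called with all libraries crossed 0 under some settings. Without the libraries with more fibroblast RNA, Hk2 in iPrE1 was at -0.10, Ldha at -0.28 in iPrE1 and -0.50 in C57_PrESC, Slc2a3 in the iPrE less C57 contrast at -0.21 and Pkm in C57_ESC against TG2A_ESC at 0.067. Pfkl in iPrE2 against iPrE1 was at -0.00014 with RLE, -0.028 with library totals, -0.011 with no filter and -0.022 with only the compared groups. Slc2a3 in the iPrE less C57 contrast was at -0.016 with RLE and -0.016 with DESeq2. Library totals gave 0.0096 for Ldhb in KO10_SL against TG2A_ESC, -0.016 for Pkm in the rescue against KO10_SL (-0.014 with no filter), 0.057 and 0.042 for Slc2a3 in KO10_S2iL against TG2A_S2iL and KO10_SL, 0.034 for Pkm in TG2A_S2iL against TG2A_ESC and 0.024 for Hk1 in C57_ESC against TG2A_ESC. With 1 library left out, these ranges crossed 0. In iPrE1 against TG2A_ESC it was -0.14 to 0.73 for Hk2 and -0.31 to 0.47 for Ldha. In iPrE2 against TG2A_ESC it was -0.010 to 0.71 for Ldha. In C57_PrESC against C57_ESC it was -0.25 to 0.43 for Ldha. In iPrE2 against iPrE1 it was -0.56 to 0.88 for Slc2a1, -0.63 to 0.79 for Slc2a3, -0.31 to 0.59 for Hk2, -0.14 to 0.14 for Pfkl, -0.12 to 0.50 for Pkm and -0.15 to 0.68 for Ldha. In the iPrE less C57 contrast it was -0.37 to 0.24 for Slc2a3, -0.45 to 0.0063 for Pkm, -0.14 to 0.51 for Ldha and -0.81 to 0.56 for Ldhb. In KO10_SL against E14_ESC it was -0.10 to 0.040 for Pgk1 and -0.038 to 0.055 for Ldha. In KO10_SL against TG2A_ESC it was -0.28 to 0.18 for Hk1. In the rescue against E14_ESC it was -0.064 to 0.16 for Slc2a3. In KO10_S2iL against TG2A_S2iL it was -0.0096 to 0.073 for Pfkl. In TG2A_S2iL against TG2A_ESC it was -0.13 to 0.24 for Pfkl and -0.19 to 0.15 for Pkm. In the interaction it was -0.33 to 0.12 for Hk1. In E14_ESC against TG2A_ESC it was -0.012 to 0.33 for Pkm. In C57_ESC against TG2A_ESC it was -0.22 to 0.24 for Hk1, -0.079 to 0.65 for Pfkl, -0.25 to 0.10 for Pkm and -0.28 to 0.26 for Ldha.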
